A study of Mus musculus with 2 samples.

Results

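The alpha-defensins numbered 30 and above were the 8 genes of the deposited tables whose symbol is Defa followed by a number of 30 or more. They are Defa30, Defa31, Defa32, Defa33, Defa34, Defa35, Defa36 and Defa37, 8 of 1448 listed genes, and each was present in both tables. RNA came from small intestinal organoids, which are crypt cultures grown in Matrigel in medium holding Noggin, R-spondin and EGF, a growth factor for epithelium. AdipKO organoids were made from Adipfl/flpVilli-CreT mice, whose floxed adiponectin alleles are cut out of intestinal epithelial cells by Cre under the villin promoter. WT organoids were made from Adipfl/fl mice, which carry the same floxed alleles without Cre. Villin is active across the gut epithelium, so the deletion is not restricted to Paneth cells. The sources used here give neither the age of the mice nor the number pooled per culture. There was 1 library per genotype, so differences could not be held against variation between cultures and none was tested.

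Alpha-defensins of the mouse gut, also called cryptdins, are small cationic peptides that kill bacteria by disrupting their membranes. Paneth cells at the crypt base store them in granules and release them into the crypt lumen. They are made as precursors with a signal peptide, an acidic prosegment and a mature peptide held by disulfide bonds between cysteines, and the protease matrilysin (Mmp7) removes the prosegment in mice. The genes arose by repeated duplication and form a cluster of near-identical copies, so sequencing reads often match more than 1 copy. In a bulk library fewer Paneth cells and less RNA per Paneth cell cannot be told apart.

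The values are estimated read counts, without scaling to library size. All listed genes together held 689005 counts for AdipKO and 802995 for WT. Those are sums over a selected part of each library and not depths, because the log2 count ratios left a gap from -1.04 to 0.96. Every listed gene therefore differed by about 2-fold or more, and a gene outside the tables was not analysed here. Adipoq and the adiponectin receptor genes Adipor1, Adipor2 and Cdh13 were not listed, so the genotype of each library rests on its label. The study's text describes Lyz1 and the stem cell markers Lgr5, Tnfrsf19, Ascl2 and Olfm4 as higher in AdipKO organoids, whereas the AdipKO-labelled library had the lower counts of all of them. The column headers also carry a tag that the sources do not explain. Whether the labels of the libraries are exchanged was not tested, and if they were, each lower value would be a higher one. The range in parentheses after a fold is its exact 95% interval and covers counting error only. It leaves out how reads matching more than 1 copy were divided.

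The coding part of the last exon, which encodes the mature peptide, is shown for all 8 copies because the sequence groups differ within it. Differences in the first exon were not counted separately. Sequences are from the GENCODE transcripts, read 5′ to 3′ on the plus strand of mm10, and codons for cysteine are in capitals.
Defa30 (chr8:21135394-21135500): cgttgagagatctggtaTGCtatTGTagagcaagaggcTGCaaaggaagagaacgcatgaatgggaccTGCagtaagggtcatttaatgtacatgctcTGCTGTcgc
Defa31 (chr8:21192345-21192451): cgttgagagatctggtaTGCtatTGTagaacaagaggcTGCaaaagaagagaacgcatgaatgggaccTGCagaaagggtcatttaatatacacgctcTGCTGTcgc
Defa32 (chr8:21529803-21529915): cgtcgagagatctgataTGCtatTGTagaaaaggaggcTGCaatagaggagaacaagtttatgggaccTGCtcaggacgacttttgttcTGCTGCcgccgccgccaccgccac
Defa33 (chr8:21392583-21392695): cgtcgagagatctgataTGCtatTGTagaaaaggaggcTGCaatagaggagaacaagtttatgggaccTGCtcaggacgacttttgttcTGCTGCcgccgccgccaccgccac
Defa34 (chr8:21666530-21666636): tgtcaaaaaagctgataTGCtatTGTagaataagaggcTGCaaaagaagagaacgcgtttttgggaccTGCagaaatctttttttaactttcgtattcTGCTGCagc
Defa35 (chr8:21065799-21065905): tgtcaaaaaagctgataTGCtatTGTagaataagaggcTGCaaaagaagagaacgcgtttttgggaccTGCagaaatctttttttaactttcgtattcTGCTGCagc
Defa36 (chr8:21428189-21428295): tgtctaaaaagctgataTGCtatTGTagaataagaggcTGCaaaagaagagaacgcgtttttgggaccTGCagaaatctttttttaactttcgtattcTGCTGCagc
Defa37 (chr8:21566147-21566253): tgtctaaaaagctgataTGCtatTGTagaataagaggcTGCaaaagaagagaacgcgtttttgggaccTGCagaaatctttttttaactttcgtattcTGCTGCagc
Defa36 and Defa37 had the same letters here, as did Defa34 and Defa35, and Defa32 and Defa33. All 8 genes had 2 exons and 6 cysteine codons, at codons 64, 66, 71 and 81 and then at an adjacent pair. That pair was at codons 91 and 92 in 6 copies, which have 93 codons. In Defa32 and Defa33 it was at codons 88 and 89 of 95, and 6 codons followed the last cysteine in place of 1.

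Over the whole coding sequence the 8 copies fell into 3 groups by identity. Defa30 and Defa31 were 97.2% identical, Defa34 to Defa37 were 97.9% to 100% identical, and Defa32 and Defa33 differed at 1 of 288 aligned bases. Pairs from different groups shared 82.6% to 85.5% of aligned bases. Each group also held copies numbered below 30. The coding sequence of Defa23 was the same as that of Defa31, Defa20 the same as Defa32, and Defa2 the same as Defa33, while Defa5 was 98.6% identical to Defa34. Defa3 was 97.2% identical to Defa30 and 97.9% to Defa31. The number in the symbol thus did not separate the copies by sequence.

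**Figure D1:**
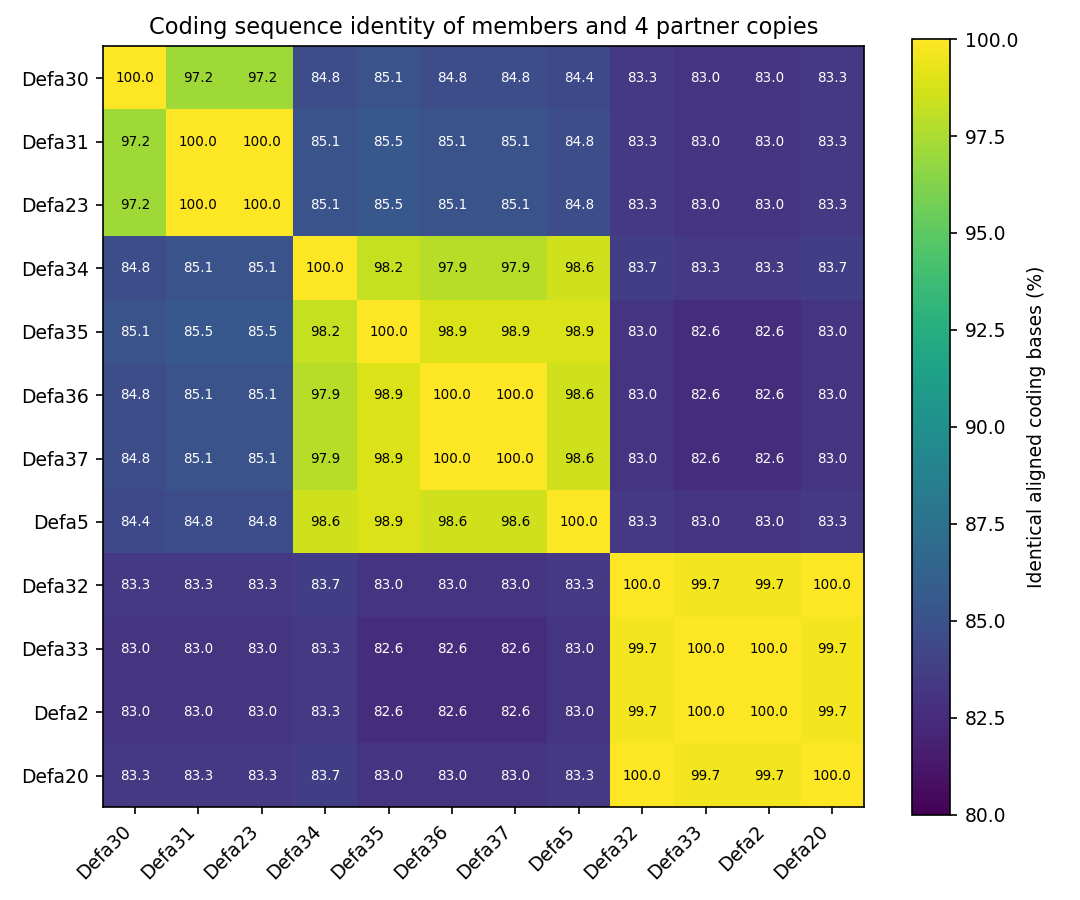
Percent of aligned coding bases that are identical (colour and printed value) for each pair of Defa30 to Defa37 and the partner copies Defa2, Defa5, Defa20 and Defa23. There are 3 blocks, and pairs of members within a block share at least 97.2% of bases, against at most 85.5% between blocks. Defa3, close in sequence to Defa30 and Defa31, is not shown.

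How far a read can be placed on 1 copy was measured with windows of 100 bases, the read length given in the methods. A window was counted as shared when the same letters occur in a GENCODE transcript of another gene on either strand. Of the windows of Defa31, all 278 were also in Defa23. Every one of the 304 windows of Defa37 was also in Defa36, and 17 of the 321 windows of Defa36 were its own. Thus single reads lying within the annotated transcript could not place counts on Defa31 or Defa37 alone. Defa33 had 0 of 327 and Defa32 1 of 326 windows of its own, with the rest in Defa2, Defa20 or each other. Defa34 had 69 of 276 windows of its own and shared 207 with Defa5, and Defa35 had 229 of 299 of its own. Defa30 stood apart, with 298 of 299 windows found in no other gene. By this measure its reads were the easiest to place on 1 copy. Its counts still had decimals in both libraries, at 1105.88 for AdipKO and 3252.94 for WT. The windows thus do not show how far its count depended on how shared reads were divided.

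All 8 copies had lower counts in the AdipKO-labelled library than in the WT-labelled library. Defa31, the most abundant, had 2476.18 counts in the AdipKO-labelled library and 8644.02 in the WT-labelled library, and was 3.49-fold lower (3.34 to 3.65). Defa30 had 1105.88 counts in the AdipKO-labelled library against 3252.94 in the WT-labelled library, 2.94-fold lower (2.75 to 3.15). These 2 copies of the same sequence group held most of the reads. Defa36 had 893.21 counts in the AdipKO-labelled library and 2875.62 in the WT-labelled library, a 3.22-fold lower value (2.99 to 3.48). Its copy Defa37 had 501.18 counts against 1192.84 and was 2.38-fold lower (2.14 to 2.65), the smallest difference of the 8. The intervals of Defa36 and Defa37 did not overlap, although all windows of Defa37 lie within Defa36. Those intervals leave out how shared reads were divided, so the 2 ratios cannot be compared as separate counts.

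The 4 remaining copies were thinner and lay further apart between the libraries. Defa33 had 174.04 counts in the AdipKO-labelled library against 1059.50 in the WT-labelled library, 6.09-fold lower (5.18 to 7.19). Defa32 had 128.46 counts in the AdipKO-labelled library against 903.95 in the WT-labelled library, 7.04-fold lower (5.86 to 8.57), the largest ratio. Both belong to the sequence group with the longer tail after the last cysteine codon. Defa34 had 37 counts against 172.63, 4.67-fold lower (3.26 to 6.86). Defa35 had 5.33 counts against 30.92, and at this depth its ratio of 5.80 had an interval from 2.39 to 20.4. The intervals of Defa34 and Defa35 both overlapped that of Defa31.

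**Figure D2:**
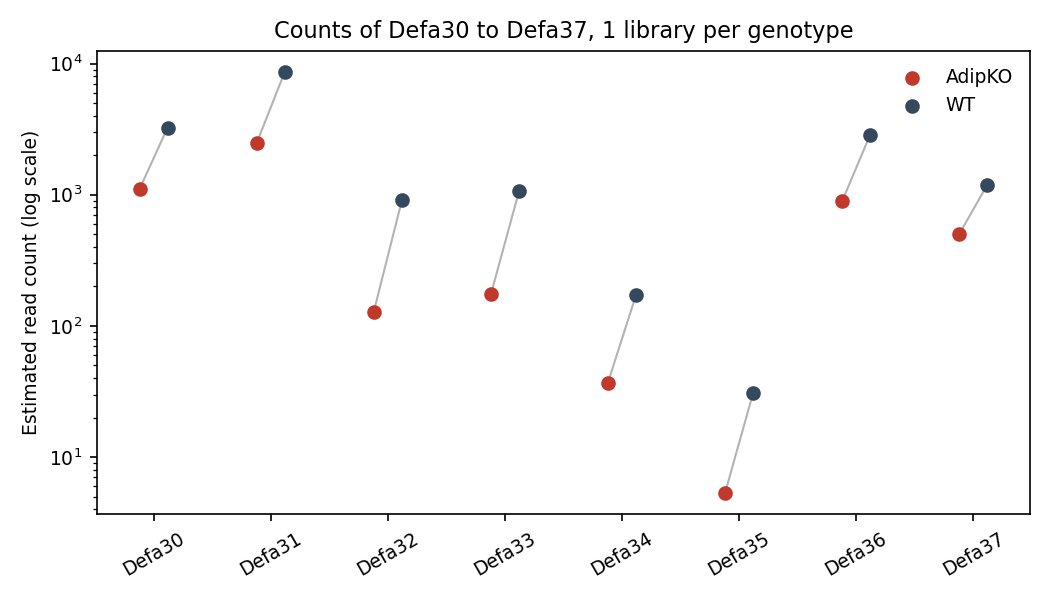
Estimated read count on a log axis for each of the 8 copies in the AdipKO-labelled library (red, left point) and the WT-labelled library (dark, right point), 1 library per genotype, with a line joining both values of a copy. Every AdipKO point lies below its WT point, and counts run from 5.33 for Defa35 in the AdipKO-labelled library to 8644.02 for Defa31 in the WT-labelled library.

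Per kilobase of annotated transcript, the order of the counts was the same at the top in both libraries. Defa31 had 6568 counts per kilobase in the AdipKO-labelled library and 22928 in the WT-labelled library. Defa30 followed with 2779 counts per kilobase in the AdipKO-labelled library and 8173 in the WT-labelled library, then Defa36 with 2127 and 6847, and Defa37 with 1244 and 2960. At the low end Defa34 had 98.7 counts per kilobase in the AdipKO-labelled library and 460 in the WT-labelled library, and Defa35 had 13.4 and 77.7. The transcripts were 375 to 426 bases long, so length did little to this order. Defa33 stood above Defa32 in both libraries, at 409 against 302 counts per kilobase in the AdipKO-labelled library and 2487 against 2127 in the WT-labelled library.

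Summed over the 8 copies, the count was 5321.28 in the AdipKO-labelled library and 18132.42 in the WT-labelled library, 3.41-fold lower (3.30 to 3.51). The sum made up 0.772% of the listed counts in the AdipKO-labelled library and 2.26% in the WT-labelled library. Of the 16 values behind it, 1 was a whole number, the 37 counts of Defa34 in the AdipKO-labelled library. By gene, 0 of 8 copies were whole in both libraries, against 85.6% of all listed genes, with no tolerance. Making the listed totals equal brought the ratio to 2.92-fold, and the median of the 8 copies gave 4.04-fold in place of the 3.41-fold of the sum, which the abundant copies dominate.

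The make-up of the sum differed between the libraries for some copies. Defa31 took 46.5% of it in the AdipKO-labelled library (45.2% to 47.9%) and 47.7% in the WT-labelled library (46.9% to 48.4%), which overlap. Defa30 took 20.8% in the AdipKO-labelled library (19.7% to 21.9%) and 17.9% in the WT-labelled library (17.4% to 18.5%), and Defa37 took 9.42% (8.64% to 10.2%) and 6.58% (6.22% to 6.95%). Shares of these 2 copies were larger in the AdipKO-labelled library, with intervals that did not overlap. The reverse held for Defa32, with 2.41% in the AdipKO-labelled library (2.01% to 2.85%) and 4.99% in the WT-labelled library (4.67% to 5.31%). Defa33 differed the same way, with 3.27% in the AdipKO-labelled library (2.81% to 3.78%) and 5.84% in the WT-labelled library (5.51% to 6.20%). Defa36 held 16.8% in the AdipKO-labelled library and 15.9% in the WT-labelled library, Defa34 held 0.695% and 0.952%, and Defa35 had the smallest share in both, with intervals that overlap between AdipKO and WT. Shares do not depend on library depth. They do depend on how shared reads were divided, which the intervals leave out. Defa32, Defa33 and Defa37 had at most 1 window of their own, whereas Defa30 had 298 of 299. Counts of Defa30 had decimals as well.

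**Figure D3:**
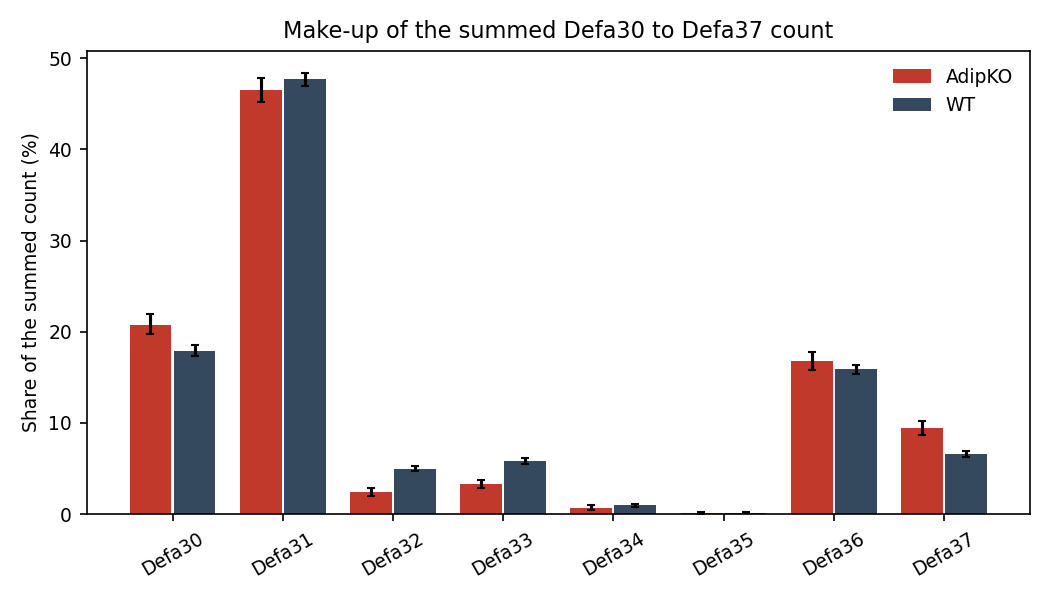
Share of the summed Defa30 to Defa37 count (percent, from 0) taken by each copy in the AdipKO-labelled library (red, left bar) and the WT-labelled library (dark, right bar), with exact 95% intervals for counting error. Defa30 and Defa37 have the higher bar in AdipKO, Defa32 and Defa33 in WT, and the bars of Defa31 stand at 46.5% and 47.7%.

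By a fold of at least 2 on the log2 scale with 1 count added, 8 of 8 copies were lower in the AdipKO-labelled library, as were 62.2% of all listed genes. The tables were selected at about that fold, so the size of at least 2-fold is fixed by the selection and the direction is not. At a fold of at least 4, Defa32, Defa33, Defa34 and Defa35 were lower, 4 of 8 copies against 13.6% of all listed genes. With equal listed totals or with 5 counts added, 3 of 8 passed that limit. The log2 ratios of the 8 ran from -2.81 to -1.25, beside a median of -1.15 over all listed genes. The copies share reads, so the 8 ratios are not 8 separate measurements.

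Counts were therefore also summed over copies that share windows. Defa34, Defa35, Defa36, Defa37 and Defa5 share windows with one another, and none of their decimals remained in the sum. They came to 1862.00 counts in the AdipKO-labelled library and 6046.00 in the WT-labelled library, 3.25-fold lower (3.08 to 3.42). The decimals of these 5 genes thus cancel within the set, and the values of its single genes depend on how shared reads were divided. Defa32, Defa33, Defa2 and Defa20 summed to 1374.00 counts in the AdipKO-labelled library and 7849.82 in the WT-labelled library, 5.71-fold lower (5.39 to 6.05). Defa31 and Defa23 together had 2476.18 counts in the AdipKO-labelled library and 9099.56 in the WT-labelled library, 3.67-fold lower (3.52 to 3.84). Defa23 alone was listed at 0 in the AdipKO-labelled library and 455.54 in the WT-labelled library, and every window of Defa31 is also in Defa23. Decimals remained in the sums of these last 2 sets in the WT-labelled library and of Defa31 with Defa23 in both. How the same reads were divided between those copies was not tested. Defa30, counted as a set of its own, also had decimals in both libraries. Of these 4 sets, 1 was at least 4-fold lower, beside 13.6% of single listed genes.

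Among these 4 sets, that of Defa32, Defa33, Defa2 and Defa20 stood furthest from the others. The ratio of the set with Defa32 was 1.94 times that of Defa30 (1.78 to 2.12). It was 1.76 times that of the set of Defa34 to Defa37 with Defa5 (1.63 to 1.90) and 1.55 times that of Defa31 with Defa23 (1.45 to 1.67). Those intervals combine the 4 counts on the log scale, cover counting error only and need no scaling to depth. The other 3 sets lay closer to one another. Defa31 with Defa23 was 1.25 times as far apart between the libraries as Defa30 (1.15 to 1.36), and the set of Defa34 to Defa37 with Defa5 1.10 times (1.01 to 1.20). Defa36 and Defa37 together were 2.92-fold lower (2.75 to 3.10), and set against Defa30 their ratio was 0.992 times as large (0.905 to 1.09). With 1 library per genotype, variation between cultures cannot be told apart from these differences.

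Alpha-defensins numbered below 30 were further apart between the libraries than those numbered 30 and above. The 9 listed copies below 30 summed to 2581.39 counts in the AdipKO-labelled library and 14259.65 in the WT-labelled library, 5.52-fold lower (5.30 to 5.76). That was 1.62 times the ratio of the sum over Defa30 to Defa37 (1.54 to 1.71), or 1.53 times (1.45 to 1.61) with Defa23 counted beside Defa31. Across this limit Defa32 and Defa33 also share windows with Defa2 and Defa20, and Defa34 with Defa5. The intervals do not cover how those reads were divided. Defa30 to Defa37 made up 67.3% of the counts of all 17 numbered copies in the AdipKO-labelled library and 56.0% in the WT-labelled library. The ranges of single copies overlap, since Defa32 and Defa33 stood with Defa2 at 7.34-fold and Defa20 at 4.55-fold, and Defa29 was 3.15-fold lower. Defa29, just below the limit on the number, had 204.14 counts against 642.11, and Defa30, just above it, 1105.88 against 3252.94. They are not near-identical copies. Defa29 lies on the minus strand, has 116 codons with 11 for cysteine, and was 66.2% identical to Defa30. Defa27, also in the sum below 30, has 66 codons.

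**Figure D4:**
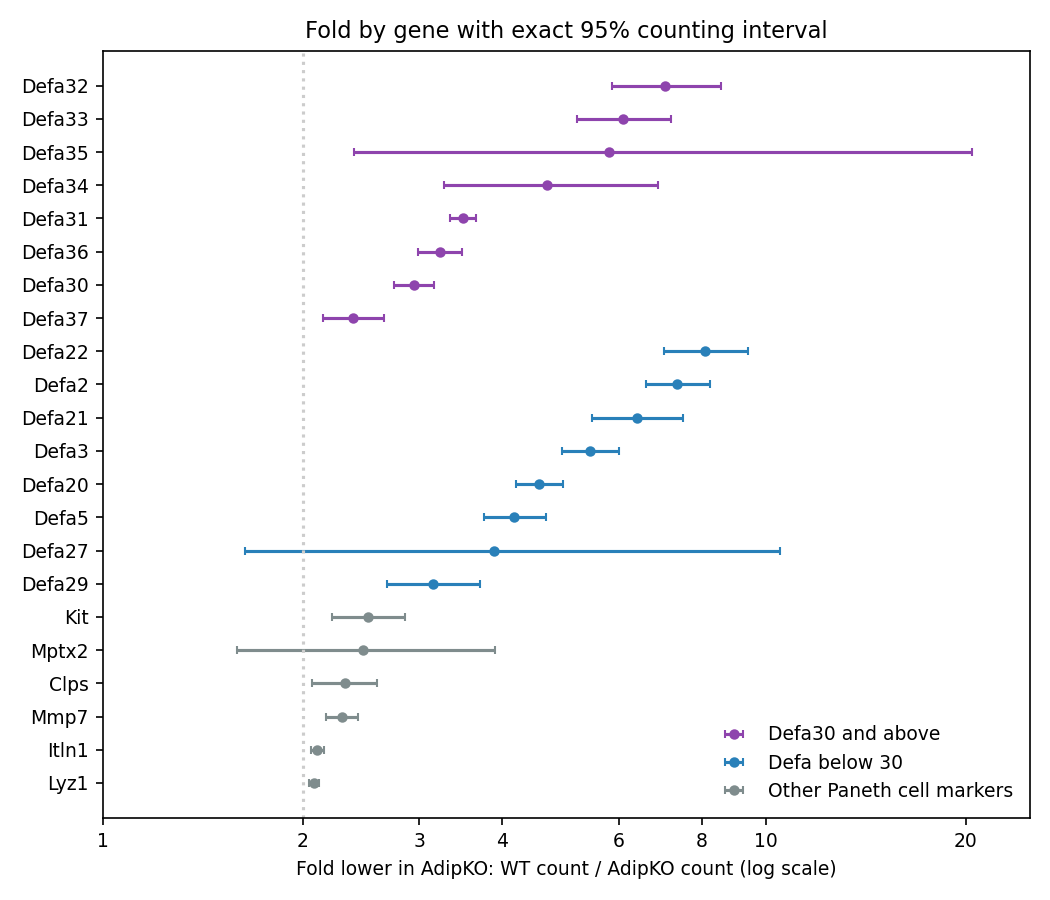
Fold lower in AdipKO (WT count over AdipKO count, log axis) with exact 95% counting intervals for Defa30 and above (purple), alpha-defensins below 30 (blue) and other listed Paneth cell markers (grey); Defa23, at 0 in AdipKO, is left out and the dotted line marks 2-fold. Defa32 and Defa33 lie among the copies below 30, and the other Paneth cell markers lie between 2.08 and 2.51.

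Other listed Paneth cell markers differed less than the sum over Defa30 to Defa37. Kit at 2.51-fold (2.21 to 2.85) and Mptx2 at 2.47-fold lower (1.59 to 3.91) lay above Defa37, with intervals that overlap its own. That of Mptx2, with 30 counts against 74, also spans the ratio of the sum. Lyz1, the lysozyme of Paneth cell granules, had 16698 counts in the AdipKO-labelled library and 34709 in the WT-labelled library, 2.08-fold lower (2.04 to 2.12). For every 100 Lyz1 counts there were 31.9 counts of Defa30 to Defa37 in the AdipKO-labelled library and 52.2 in the WT-labelled library. The sum over Defa30 to Defa37 was therefore 1.64 times as far apart as Lyz1 (1.58 to 1.70), a comparison within each library that does not depend on depth. Of 16 Paneth cell markers outside the alpha-defensins 6 were listed, all 6 were lower, and none was at least 4-fold lower. Of all listed genes, 62.2% were lower and 13.6% at least 4-fold lower. The list includes Mmp7, which cleaves the precursors and was 2.29-fold lower with 1817 counts against 4167, and the lectin gene Itln1, 2.10-fold lower with 11525 against 24258. Of 22 genes of alpha-defensin maturation and Paneth cell fate, Mmp7 and Ephb3 were listed and both were lower. Ephb3, a receptor that keeps Paneth cells at the crypt base, had 339 counts against 1081 and was 3.19-fold lower (2.82 to 3.61). That interval lay above that of Defa37 (2.14 to 2.65) and overlapped that of Defa30 (2.75 to 3.15).

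Markers of other cell types differed too, and their part in these results was not tested. Stem cell markers were lower in 5 of 5 listed genes out of 8, with a summed 40586 counts in the AdipKO-labelled library and 109499 in the WT-labelled library. Enteroendocrine markers were lower in 5 of 5 listed out of 7 (4255 and 10146 counts). Both counts, and those that follow, stand beside 62.2% of all listed genes being lower. The opposite was seen for enterocyte markers, higher in 3 of 4 listed out of 7, at 5163 and 1621 counts. Sis alone held 4435 and 1377 of those, and Lct was lower, with 8 counts against 35. None of 7 goblet cell markers was listed. Of 6 immune cell markers, Itgam and Cd68 were listed and higher, at a sum of 292 counts against 134, while the neutrophil genes Ly6g, S100a8 and S100a9 were not. The tuft cell marker Il17rb had 20 counts in the AdipKO-labelled library and 44 in the WT-labelled library, and the fibroblast marker Vim had 109 and 322.

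The promoters are shown for the 6 copies that RefSeq tables of GRCm38.p6 gave, since Defa30 and Defa31, and Defa35 and Defa36, are close in coding sequence and differ there. Each line gives the 160 bases before the annotated start of transcription, 5′ to 3′ on the plus strand. Capitals mark TATAAA, the TATA box that positions transcription, and ATCAAAG, a sequence recognised by the TCF and LEF factors of the Wnt pathway.
Defa30 (chr8:21134490-21134649): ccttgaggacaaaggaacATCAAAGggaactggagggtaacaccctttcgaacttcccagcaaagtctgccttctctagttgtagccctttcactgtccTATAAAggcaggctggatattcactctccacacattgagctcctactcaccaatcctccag
Defa31 (chr8:21191413-21191572): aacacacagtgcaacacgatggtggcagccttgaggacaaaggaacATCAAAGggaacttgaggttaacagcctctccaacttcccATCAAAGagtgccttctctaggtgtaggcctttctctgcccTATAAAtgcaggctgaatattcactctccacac
Defa32 (chr8:21528870-21529029): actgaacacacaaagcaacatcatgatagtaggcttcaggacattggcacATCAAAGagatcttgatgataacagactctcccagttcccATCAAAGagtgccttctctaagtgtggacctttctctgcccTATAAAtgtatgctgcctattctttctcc
Defa35 (chr8:21064878-21065037): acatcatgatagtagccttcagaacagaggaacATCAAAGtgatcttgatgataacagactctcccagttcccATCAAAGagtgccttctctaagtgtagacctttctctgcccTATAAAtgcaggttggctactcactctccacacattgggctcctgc
Defa36 (chr8:21427268-21427427): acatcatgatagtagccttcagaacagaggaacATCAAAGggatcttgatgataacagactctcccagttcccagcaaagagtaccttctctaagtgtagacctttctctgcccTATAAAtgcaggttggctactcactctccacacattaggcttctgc
Defa37 (chr8:21565226-21565385): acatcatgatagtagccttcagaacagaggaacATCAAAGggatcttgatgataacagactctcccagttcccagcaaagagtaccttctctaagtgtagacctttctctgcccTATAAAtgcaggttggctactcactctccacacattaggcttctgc
Both motifs were searched on both strands in the whole 300 bases that the table gives around each start, and did not overlap each other. They were chosen after the counts and the sequences had been seen. All 6 promoters held 1 TATAAA, which 13.6% of 32851 promoter windows of the genome hold. All 6 also held ATCAAAG, against 3.73% of all windows, and in each a match began 81 bases before TATAAA. A further match 41 bases before TATAAA was present in Defa31, Defa32 and Defa35, and 33 of the 32851 windows held 2 or more. At that place Defa30, Defa36 and Defa37 had agcaaag, which differs from the Defa35 letters by T2G, counted from 1 at the first base of the motif. Another motif, the E-box CAGCTG, was in none of the 6 and in 16.3% of all windows. The copies stem from common ancestors, so shared letters are not separate observations, and a match is not evidence of binding.

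Taken copy by copy, those with a pair of matches had the higher listed ratios. Defa32 at 7.04-fold, Defa35 at 5.80-fold and Defa31 at 3.49-fold lower had 2 matches. Defa36 at 3.22-fold, Defa30 at 2.94-fold and Defa37 at 2.38-fold lower had 1. Promoters of 5 copies numbered below 30 were in the table, and all had 2 matches with the same spacing. Together, 7 copies with 2 matches and a count above 0 in both libraries were 3.49-fold to 8.10-fold lower (median 6.39), and the 3 copies with 1 match were 2.38-fold to 3.22-fold lower (median 2.94). This is a description with no test. Ratios of single copies, and so these medians, depend on how shared reads were divided. Defa31, Defa32 and Defa37 had at most 1 window of their own. Summed over copies that share windows, Defa36 with Defa37 was 2.92-fold lower and Defa31 with Defa23 3.67-fold. The promoters are not separate cases. Defa23 and Defa31 have the same promoter letters, and so do Defa36 and Defa37, Defa2 and Defa20, and Defa21 and Defa22. The promoter of Defa32, aligned with a shift in the start, is 98.7% identical to that of Defa2 and Defa20 and 96.4% to that of Defa21 and Defa22, so 5 of the 7 copies with 2 matches and a ratio are near-copies of 1 promoter. The interval of Defa35 spans both groups, and that of Defa31 overlaps that of Defa36.

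**Figure D5:**
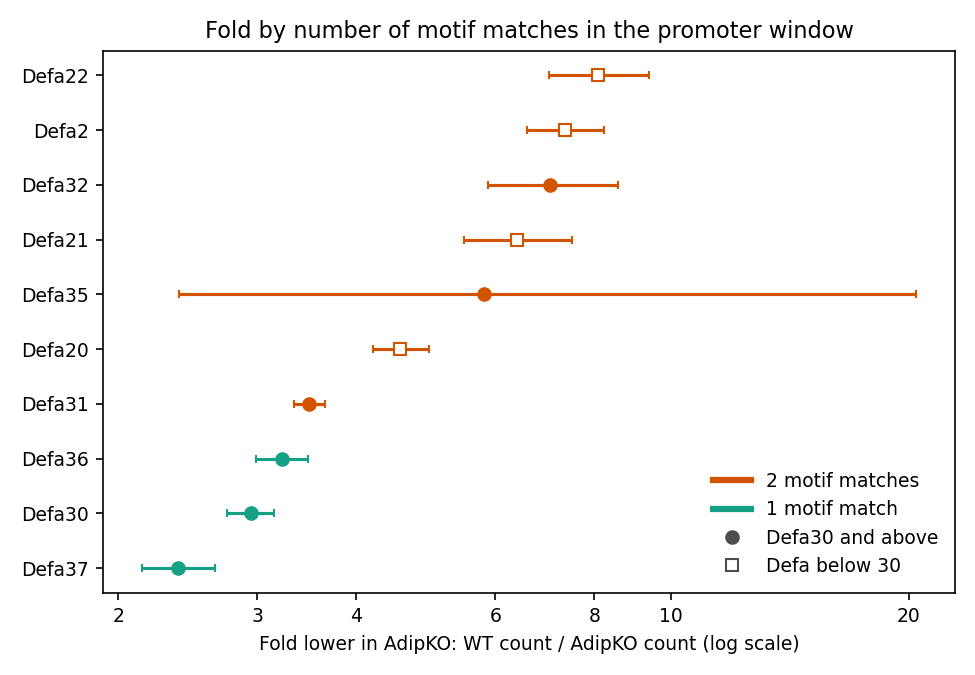
Fold lower in AdipKO (log axis) with exact 95% counting intervals for the 10 copies that have a promoter in the table and counts in both libraries, coloured by 2 matches (orange) or 1 match (green) of the TCF and LEF motif; circles are Defa30 and above, squares are copies below 30. The 3 copies with 1 match lie between 2.38 and 3.22 and the 7 copies with 2 matches between 3.49 and 8.10. Folds of single copies depend on how shared reads were divided, which the intervals leave out.

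Neighbouring copies did not always have like ratios. The 8 copies lie on the plus strand of chromosome 8 over 601.7 kb, from 21065038 at the start of Defa35 to 21666733 at the end of Defa34 (mm10), with copies numbered below 30 among them. Defa32 and Defa37 start 36.3 kb apart, and were 7.04-fold and 2.38-fold lower. Defa33 and Defa36 start 35.6 kb apart, and were 6.09-fold and 3.22-fold lower. Defa36 and Defa37, with the same coding sequence, are not neighbours, since Defa20 and Defa32 lie between them.

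A further 5 listed genes carried another symbol although RefSeq names their gene ID as an alpha-defensin with a still higher number. They are Gm14851 (Defa38), AY761184 (Defa39), Gm15292 (Defa40), Gm7849 (Defa42) and Gm7861 (Defa43). All 5 were lower, by 2.85-fold to 3.59-fold, where 62.2% of all listed genes were lower. They summed to 771.88 counts in the AdipKO-labelled library and 2590.07 in the WT-labelled library. With them the sum over Defa30 and above was 3.40-fold lower (3.31 to 3.50). Outside the alpha-defensins, the listed genes with at least 1000 counts over both libraries together and the log2 ratio nearest to that of the 8 copies were Egln3, Gm46156 and Gm42048. Egln3, an oxygen-sensing prolyl hydroxylase, had 1521 counts against 5134, and its log2 ratio of -1.76 lay 0.01 from the -1.77 of the sum. Gm46156 was 3.48-fold and Gm42048 3.58-fold lower. With 2 libraries, such likeness is a likeness of 1 ratio.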

How the data were processed

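RNA from AdipKO and WT small intestinal organoids was sequenced in 1 library per genotype by BGI on the MGISEQ-2000 (100 bp paired ends). The authors deposited estimated counts per gene, with decimals and without scaling; per the labels the build was mm10. Aligner, counting program and strand handling are not given in these sources. The methods name FPKM, but the file headers name read counts. The 1448 listed genes are a selected part of each library, and depth was not analysed here.

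Members and lists were chosen with earlier results of these data known. Named genes were all 8 members, extremes of the copies below 30, listed members of the marker lists, and the 3 genes nearest in ratio. Ratios used the deposited counts, with exact Clopper-Pearson 95% intervals on rounded counts (scipy 1.17.1) and a pseudocount of 1 for the fold limits. The intervals were checked on simulated independent whole counts. Division of reads among copies was not simulated, so that check does not cover copies that share reads. Reads are not independent molecules. All 8 gene IDs matched RefSeq (GRCm38.p6, the assembly behind mm10); 8 matched GENCODE M21 transcripts and 6 a promoter. Coding sequences were aligned globally (Biopython 1.88). No protein sequence was used here. Alternatives covered scaling, pseudocounts of 0.1 and 5, a minimum of 10 counts, rounding and left-out copies.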

Additional observations from a re-analysis of the deposited data

How the results depend on the processing

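All 8 copies were lower and at least 2-fold lower under both scalings, both pseudocounts and the minimum of 10 counts, and 3 or 4 of 8 were at least 4-fold lower. The sum over the 8 copies, 3.41-fold lower, was 2.92-fold lower with equal listed totals, which shift every log2 ratio by 0.22, and 4.04-fold as the median of the copies. It was 3.53-fold without Defa30 and 3.51-fold without Defa37, and stayed within its counting interval without any other single copy. With all 17 numbered copies as the denominator, the share of Defa31 was 31.3% in the AdipKO-labelled library and 26.7% in the WT-labelled library, against 46.5% and 47.7% of the 8 copies. Without Defa20, the largest copy below 30, the ratio of the copies below 30 was 1.73 times that of Defa30 to Defa37, and with Defa23 counted beside Defa31 it was 1.53 times, in place of 1.62. The other listed Paneth cell markers gave 1.59 in place of the 1.64 against Lyz1. Of 80 recomputed values, 25 lay outside the counting interval of the main value, among them shares taken on the larger denominator. None turned direction, but that outcome was largely fixed in advance and carries little weight. Shares and counts of copies have no direction to turn. Every copy was at least 2-fold lower, and the scalings shift log2 ratios by at most 0.22. Adding Defa23 or the genes that RefSeq names Defa38 and above was chosen after seeing the data. No paired analysis was possible because there was 1 library per genotype. The tables' selection at about 2-fold, the absence of replicates and the division of reads among copies limit every ratio given.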
